A study of Rattus norvegicus with 3 samples.

Results

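The 10 genes examined here encode the receptors for adiponectin (Adipor1, Adipor2 and Cdh13), the adaptor of the receptors (Appl1) and the catalytic (Prkaa1, Prkaa2), beta (Prkab1, Prkab2) and gamma (Prkag1, Prkag2) subunits of AMPK, a kinase that acts downstream of them. They were taken by gene symbol from the 18425 genes of the deposited table, and each symbol was found once. The table names each gene by its NCBI identifier, such as 289036 for Adipor1, 312670 for Adipor2, 65248 for Prkaa1 and 78975 for Prkaa2. Retinal RNA was sequenced in 3 libraries from wild-type Sprague Dawley rat pups that all received 1 µl into the vitreous at P1 and gave their retinas at P4. Eyes of the buffer library had received citrate buffer of pH 4.5, those of the saline library saline, and those of the STZ library 10 µg of streptozotocin diluted from a stock in that citrate buffer. STZ is a sugar-linked nitrosourea that alkylates DNA and is best known for killing the beta cells of the pancreas. For the injections at P1 the paper describes STZ and buffer given to opposite eyes of one animal, and whether the buffer and STZ libraries came from such pairs is not given in the sources used here. There was 1 library per condition, and how many pups or retinas went into each is not given in the sources used here. The spread between animals is therefore unknown, no p-value was computed, and treatment, animal and dissection cannot be told apart in any comparison.

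Adiponectin is a hormone of fat tissue. Its receptors AdipoR1 and AdipoR2 are membrane proteins of the PAQR family, and T-cadherin, encoded by Cdh13, binds the hormone on the cell surface without a cytoplasmic domain of its own. The adaptor APPL1 binds the receptors inside the cell. AMPK senses a fall of cellular energy. It is a trimer of a catalytic alpha subunit, a beta subunit that holds the trimer together, and a gamma subunit that binds adenine nucleotides, and each subunit has isoforms from separate genes. In the neonatal retina adiponectin has been studied for its part in photoreceptor metabolism and vessel growth, and the study asked whether genes of its pathway differ after STZ.

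The rounded counts summed to 21992701 reads for buffer, 21977846 for saline and 22031241 for STZ. The reads had been mapped to rn6, according to the processing notes of the submitters. All 10 retinal marker genes fixed for a check of the tissue, Pax6 and Crx among them, had reads in every library, and together they held 64291 to 66730 reads. Of 8 skeletal muscle markers, Myod1, which sets the muscle lineage, was listed at 0 in buffer and saline, and the whole list held 78 to 82 reads. Markers of other cells differed between the libraries. The 8 microglia markers summed to 1056 reads in buffer, 1216 in saline and 2514 after STZ, and the 8 lens markers to 255, 553 and 2418. Most lens reads after STZ were of the crystallin genes Cryaa, Cryba1 and Crygd, with 928, 731 and 519. Mip had 73, 73 and 86 reads in the 3 libraries and Bfsp1 50, 105 and 90. The 6 astrocyte markers summed to 1143, 1186 and 555, and the 6 markers of ciliary and iris epithelium to 2122, 8079 and 2148. The endothelial list without Kdr, which holds most of its reads, summed to 672, 608 and 201, and the 8 proliferation genes to 67320, 67062 and 50023, or 36822, 36334 and 31397 without Ccnd1. Ccnb1 of that list was higher in STZ, with a ratio of 1.31 against buffer (1.24 to 1.39). In bulk retina, fewer cells of a type and less RNA per cell cannot be told apart, and the part of these differences in the values below was not tested.

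The level of a gene is given as FPKM, which divides its fragments by transcript length and by library size, so that genes of unequal length can be compared. Adipor1 had the highest level of the 10 genes, at 70.5 FPKM in buffer, 74.1 in the saline library and 73.5 after STZ. In buffer, 92.7% of all genes had a lower FPKM. Prkag1, Adipor2 and Prkab1 followed with 56.1, 49.4 and 43.1 in buffer, then Appl1 with 20.8. Prkaa2, Prkab2, Prkag2 and Prkaa1 lay close together between 7.06 and 10.2, and Cdh13 was lowest with 3.25. The counting intervals of Prkaa2 and Prkab2, and of Prkab2 and Prkag2, overlapped in buffer, so their order is not resolved there.

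**Figure D1:**
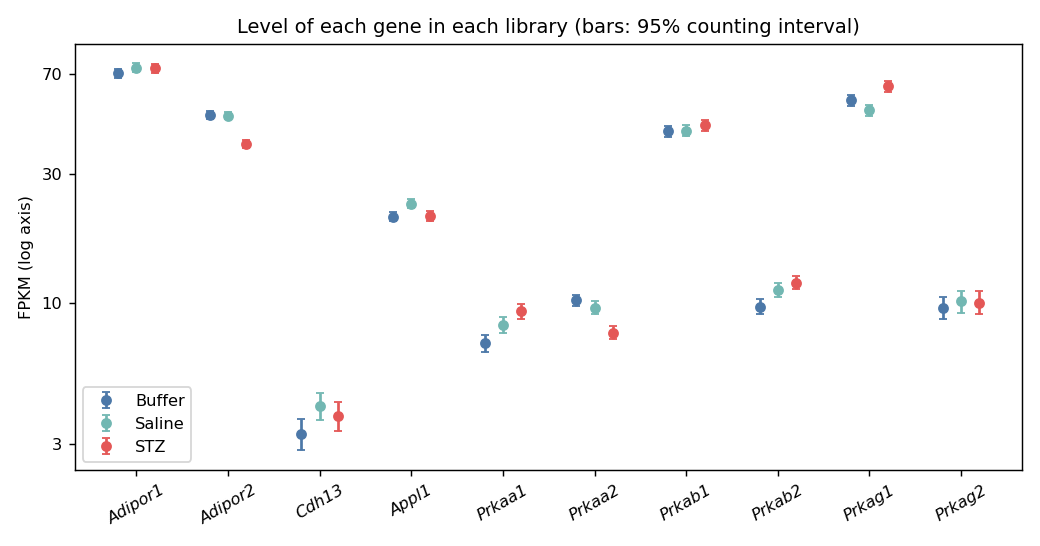
FPKM of the 10 genes on a log axis in the Buffer, Saline and STZ libraries, 1 point per library, with bars for the 95% counting interval (Poisson) of the reads behind each point. Adipor1 is highest in every library and Cdh13 lowest, and the STZ points of Adipor2 and Prkaa2 lie below both control points.

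The order was kept at both ends in every library and differed in the middle. In saline, Prkaa2 at 9.57 stood below Prkab2 at 11.1 and Prkag2 at 10.1, with overlapping counting intervals for Prkag2 and Prkaa2. In the STZ library, Adipor2 at 38.6 stood below Prkab1 at 45.3, and Prkaa2 at 7.74 stood below Prkaa1 at 9.30. These last 2 exchanges of place lay outside the counting intervals on FPKM. They also rest on the transcript length behind the FPKM, which differed between the libraries for Adipor2 and Prkaa2, as given below. The intervals do not include that difference, so whether the exchanges hold at equal lengths was not tested. Such intervals cover counting error only and say nothing of the spread between animals.

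Differences between libraries were measured in 2 ways. The fold is (FPKM + 1)/(FPKM + 1), the formula of the methods, and a gene was called deregulated when the fold was above 1.54 or below 0.65. The count ratio divides the share of reads that a gene takes in one library by its share in the other. It carries an exact 95% counting interval and was called higher or lower when that interval left out 1. By the fold, 0 of the 10 genes were called in STZ against buffer, where 3.73% of 14886 genes were called, those that averaged 10 counts or more over the libraries. The numbers were 0 of 10 against a background of 4.33% in STZ against saline, and 0 of 10 against 1.46% in saline against buffer. At this background, 0 of 10 is not a result about these genes. Relative to buffer, the folds of the 10 genes in STZ lay between 0.782 and 1.28. Relative to saline they lay between 0.788 and 1.22, and between the controls they lay between 0.918 and 1.21. Their median log2 fold was 0.06, -0.01 and 0.07 in these 3 comparisons, beside 0.03, 0.01 and 0.02 over the 14886 genes.

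The finer count ratio placed 3 of the 10 genes above buffer in STZ, Prkaa1, Prkab2 and Prkag1, where 26.2% of all genes were called higher. It called 2 lower, Prkaa2 and Adipor2, where 18.8% of all genes were. Against saline, 2 were called higher (26.9% of all genes) and 3 lower (23.5%). Between the controls themselves, 4 were called higher in saline than in buffer (15.9%), Prkab2, Cdh13, Prkaa1 and Appl1, and 1 lower (12%), Prkag1. Calls of this kind grow with the number of reads. Among the 8491 genes within the range of mean counts of the 10, the interval left out 1 for 49.1% when STZ was set against buffer, 56.0% when it was set against saline and 29.6% for the controls, beside 5 of the 10 genes in each comparison. The median size of the log2 count ratio in STZ against buffer was 0.18 over the 10 genes and 0.16 over all genes.

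The 3 comparisons share libraries, so a gene was also placed by where its STZ value fell relative to both controls. The STZ share of reads lay above both controls for 4 of the 10 genes, beside 44.9% of all genes, and below both for 2, beside 35.5%. With the counting interval applied against both controls, Prkaa1 and Prkag1 were higher in STZ, beside 19.4% of all genes, and Prkaa2 and Adipor2 were lower, beside 14.8%. The other 6 genes were not called against both controls in 1 direction.

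**Figure D2:**
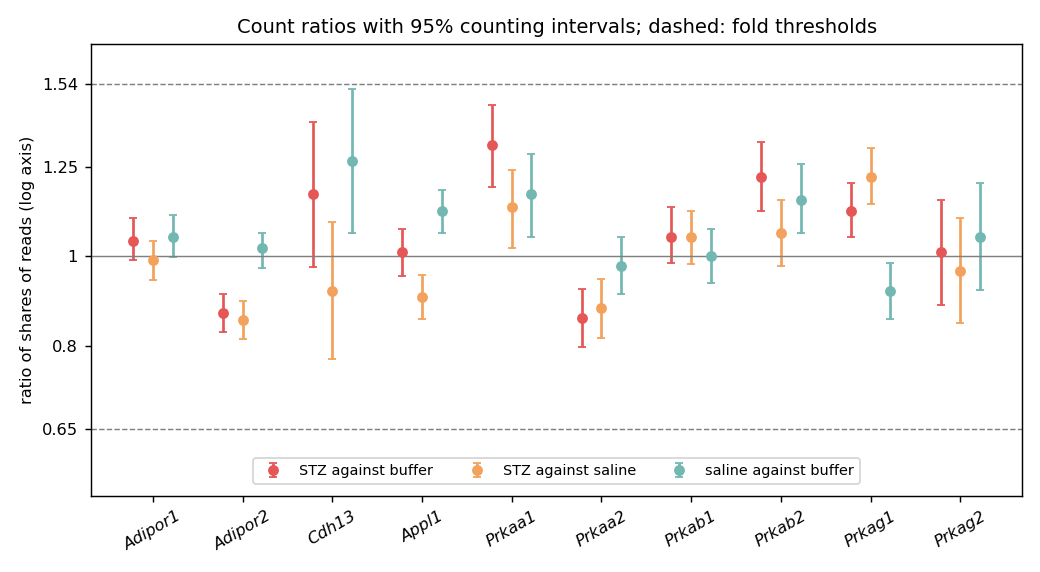
Ratio of the shares of reads for each of the 10 genes on a log axis for STZ and buffer, STZ and saline, and the pair of controls, with 95% counting intervals. The dashed lines are the fold thresholds 1.54 and 0.65. Every ratio lies inside the thresholds, and the intervals of Adipor2 and Prkaa2 lie below 1 in both comparisons of STZ.

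The 4 primers below are those the study lists for RT-PCR of both receptors, and are shown because they mark the receptor transcripts assayed apart from the sequencing. The RT-PCR values were not analysed here. Each is 20 bases long.
AdipoR1 forward: agagaatcgcaccagtgacc
AdipoR1 reverse: tgtctgtgaaggaccagcag
AdipoR2 forward: ccacatctttgtggttgctg
AdipoR2 reverse: ccaccaatcatgaaacgaaa

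Adipor1 had 2836 reads in buffer, 2981 in saline and 2963 after STZ. The STZ value lay between the controls. Against buffer its count ratio of 1.04 had an interval of 0.99 to 1.1, and against saline the ratio of 0.992 had one of 0.942 to 1.04, so no difference was detectable at this depth. Adipor2 had 3650, 3710 and 3173 reads in the same order. No difference between the controls was detectable, with a ratio of 1.02 (0.971 to 1.06), and STZ was below both. The ratio of STZ was 0.868 against buffer (0.827 to 0.91) and 0.853 against saline (0.813 to 0.895). A count ratio at least this far from 1 in STZ against buffer was seen for 41.3% of all genes. Adipor1 gave 58.8% of the FPKM of both receptors in buffer, 60.1% in saline and 65.6% after STZ. This share also rests on the length behind the FPKM of Adipor2, 11.1% greater in STZ than in buffer, as given below. The ratio of Adipor1 to Adipor2 reads within a library, which does not depend on the library total, was 1.2 times that of buffer in STZ (1.12 to 1.29) and 1.16 times that of saline (1.08 to 1.25), while saline and buffer differed 1.03-fold (0.965 to 1.11).

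Cdh13, the T-cadherin gene, had 225 reads in buffer, 286 in saline and 263 in STZ, or 3.25, 4.13 and 3.79 FPKM. It is the least sequenced of the 10 genes and its intervals are the widest. The count ratio was 1.27 in saline against buffer (1.06 to 1.52), and STZ lay between the controls with 1.17 against buffer (0.973 to 1.4) and 0.917 against saline (0.773 to 1.09). T-cadherin is known from endothelial and mural cells as well as neurons. The endothelial markers were lower in STZ than in both controls, beside 35.5% of all genes. Cdh5, the endothelial cadherin, had 119, 114 and 28 reads and Cldn5, a tight junction gene, 188, 154 and 37. For Emcn (0.304 to 1.71) and Esam (0.453 to 1.1) the interval of the ratio against buffer held 1. Of the 8 mural cell markers, 3 passed the lower fold threshold against buffer, beside 3.73% of all genes past either threshold. Myh11, a myosin of smooth muscle in the same list, was higher in STZ, with 317, 230 and 406 reads and a ratio of 1.28 against buffer (1.1 to 1.49). Cdh13 was not below both controls in STZ, and from which cells its reads came was not tested.

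Appl1, which encodes the adaptor of the receptors, had 2492 reads in buffer, 2778 in saline and 2515 in STZ. No difference between STZ and buffer was detectable, with a ratio of 1.01 (0.953 to 1.07), and the saline library stood above both. Saline was 1.12 against buffer (1.06 to 1.18) and STZ was 0.903 against saline (0.855 to 0.954). Its paralog Appl2 had 1439, 1445 and 1296 reads, with a ratio of 0.899 in STZ against buffer (0.833 to 0.97) and 0.895 against saline (0.829 to 0.965). For Appl1 the library that stood apart was thus a control.

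The catalytic subunits of AMPK differed in opposite directions. Prkaa1, which encodes alpha 1, had 690 reads in buffer, 805 in saline and 910 in STZ. Its count ratio was 1.32 in STZ against buffer (1.19 to 1.46) and 1.13 against saline (1.02 to 1.24). The controls differed too, by 1.17 (1.05 to 1.29), and saline lay between buffer and STZ. Prkaa2, which encodes alpha 2, had 1599, 1561 and 1374 reads. No difference between the controls was detectable, at 0.977 (0.911 to 1.05), and STZ was lower than both, with 0.858 against buffer (0.798 to 0.922) and 0.878 against saline (0.816 to 0.945). In STZ against buffer, 19.2% of all genes had a count ratio at least as far from 1 as Prkaa1, and 38.3% as Prkaa2. In STZ against saline these shares were 53.1% and 49.9%, so differences of this size were common.

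On FPKM, the balance of the alpha genes was reversed between the controls and STZ. Prkaa1 gave 41.0% of the alpha FPKM in buffer, 46.3% in saline and 54.6% in STZ, while the sum of both genes was 17.2, 17.8 and 17.0. Counted in reads, Prkaa1 stood to Prkaa2 as 0.432 to 1 with buffer, 0.516 to 1 with saline and 0.662 to 1 after STZ. This ratio in STZ was 1.53 times its value in buffer (1.36 to 1.74) and 1.28 times its value in saline (1.14 to 1.45), and in saline it was 1.2 times its value in buffer (1.05 to 1.35). Taken from FPKM, the ratio was 0.694, 0.862 and 1.2, so that the change from buffer to STZ was 1.73-fold on that scale. The length behind the FPKM of Prkaa2 was 12.8% greater in STZ than in buffer, as described below. The size of the change on FPKM depends on that length, and whether the reversal holds at equal lengths was not tested. The origin of the difference in length was not tested either. The ratio in STZ lay above both controls, and saline lay between buffer and STZ. The change of the read ratio between the controls and that from saline to STZ had overlapping intervals.

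**Figure D3:**
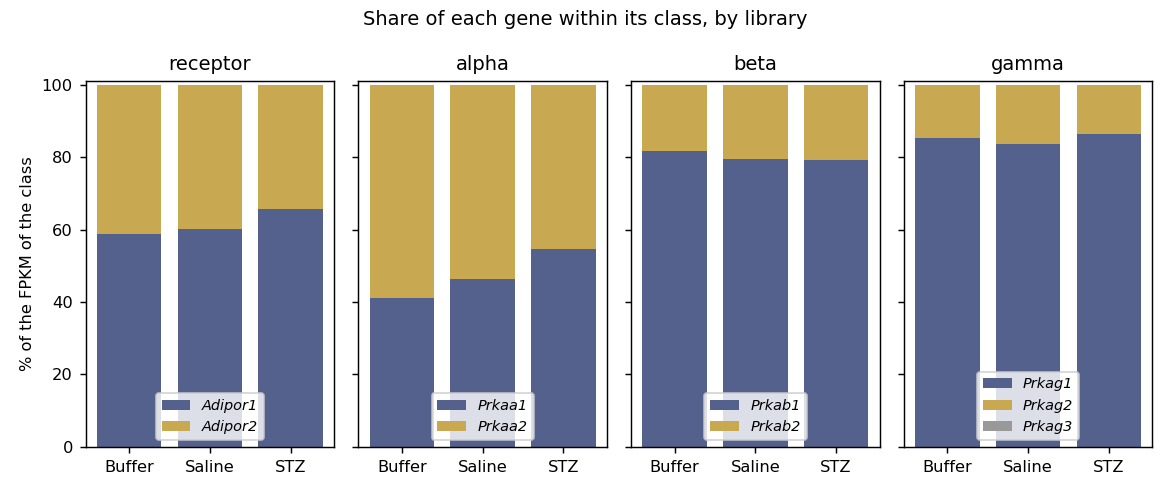
Share of each gene in the summed FPKM of its class (receptors, and alpha, beta and gamma subunits of AMPK) in the Buffer, Saline and STZ libraries, as stacked bars from 0 to 100%. Prkaa1 goes from 41.0% of the alpha class in Buffer to 54.6% in STZ, Prkab1 and Prkag1 hold most of their classes in each library, and Prkag3 is too low to be seen.

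Among the beta subunits, Prkab1 had 1665 reads in buffer, 1666 in saline and 1754 in STZ, with a ratio of 1.05 against each control (0.983 to 1.13 against buffer). Prkab2 had 997, 1148 and 1219 reads. Its ratio was 1.22 in STZ against buffer (1.12 to 1.33) but 1.06 against saline (0.976 to 1.15), and saline stood above buffer by 1.15 (1.06 to 1.26). The buffer library was thus the one that stood apart for Prkab2. Prkab1 gave 81.7%, 79.6% and 79.3% of the beta FPKM in buffer, saline and STZ.

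Prkag1, the main gamma gene, had 1688 reads in buffer, 1548 in saline and 1895 in STZ. STZ was above both controls, with ratios of 1.12 (1.05 to 1.2) and 1.22 (1.14 to 1.31), and saline was below buffer with 0.918 (0.856 to 0.984). Prkag2 had 450, 472 and 456 reads, and none of its 3 intervals left out 1. It gave 14.6%, 16.4% and 13.7% of the gamma FPKM. Prkag3, the gamma gene known from skeletal muscle, was not one of the 10 genes and had 1, 1 and 2 reads, at or under the floor of 3 reads below which no fold is given. Summed over the class, the gamma FPKM came to 65.7 with buffer, 61.5 with saline and 73.2 with STZ.

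For Adipor2 and Prkaa2 the FPKM and the reads did not give the same size of difference. The fold of Adipor2 in STZ against buffer was 0.785 and its FPKM ratio 0.781, against a count ratio of 0.868. For Prkaa2 the FPKM ratio was 0.76 and the count ratio 0.858. The transcript length that reads and FPKM together imply, reads divided by FPKM and library total, shows where they part. For Adipor2 it was 3361 bases in buffer, 3431 in saline and 3734 in STZ, and for Prkaa2 7142, 7422 and 8058. STZ was above buffer by 11.1% and 12.8% and above saline by 8.83% and 8.57%, while saline was above buffer by 2.08% and 3.92%. For Prkag2 the difference between STZ and buffer was -3.29%. For the other 7 genes it differed by less than 1% in every comparison.

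These shifts were larger than rounding allows, since the 2 decimals of the FPKM move it by at most 0.15%. Implied lengths differed by more than 5% between STZ and buffer for 2 of the 10 genes and for 5.0% of the 12532 genes with an FPKM of at least 1 in each library. The background was 5.09% in STZ against saline, again beside 2 genes, and 3.96% in saline against buffer, beside 0 genes. How the custom script of the authors set the length of a gene is not given in the sources used here, and whether a shift of isoforms or another step moved it was not tested. RefSeq lists 7 transcripts for Adipor2 and 4 for Prkaa2 in its GRCr8 annotation, beside 6 for Adipor1 and 25 for Prkag2. For Adipor2 and Prkaa2 the direction was the same on both scales, and the size is given on both.

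**Figure D4:**
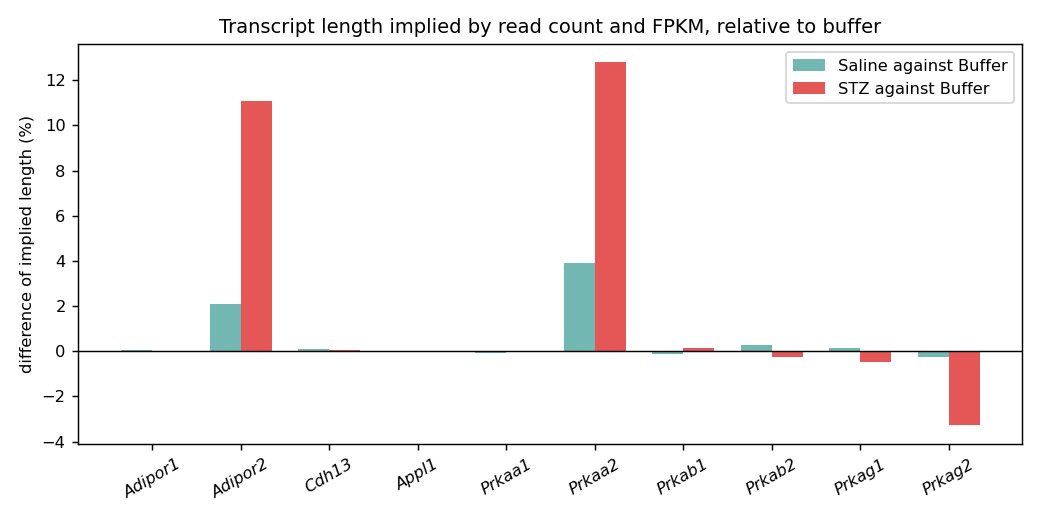
Difference in percent of the transcript length implied by read count and FPKM, for each of the 10 genes in the Saline and STZ libraries relative to Buffer. Adipor2 and Prkaa2 reach 11.1% and 12.8% in STZ, Prkag2 lies at -3.29%. In Saline, Prkaa2 reaches 3.92% and Adipor2 2.08%, and the bars of the other 7 genes are below 1% in size.

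The start regions of the 4 genes that were called against both controls are shown next, Prkaa1 and Prkag1 on the higher and Prkaa2 and Adipor2 on the lower side. Each window holds 250 bases before and 50 after a transcript start in RefSeq, read 5′ to 3′ on the strand of the gene, with coordinates in the GRCr8 build, which is not the rn6 build of the reads. Capitals mark the GC box, GGGCGG or its reverse complement CCGCCC, the element bound by Sp1, and overlapping matches run together.
Prkaa1 chr2:55967525-55967824, plus strand: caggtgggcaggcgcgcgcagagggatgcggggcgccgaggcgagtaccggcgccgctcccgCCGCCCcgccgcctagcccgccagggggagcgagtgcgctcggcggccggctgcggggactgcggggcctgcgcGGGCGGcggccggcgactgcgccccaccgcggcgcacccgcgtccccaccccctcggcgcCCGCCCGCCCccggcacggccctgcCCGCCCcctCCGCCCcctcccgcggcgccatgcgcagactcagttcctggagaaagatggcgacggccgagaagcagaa
Prkag1 chr7:131859435-131859734, minus strand: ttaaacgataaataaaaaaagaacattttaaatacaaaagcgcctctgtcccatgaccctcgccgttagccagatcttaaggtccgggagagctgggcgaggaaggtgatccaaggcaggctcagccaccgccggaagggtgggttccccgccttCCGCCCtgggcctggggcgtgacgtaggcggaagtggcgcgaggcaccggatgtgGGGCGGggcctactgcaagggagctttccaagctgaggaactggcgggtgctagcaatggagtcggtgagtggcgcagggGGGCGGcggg
Prkaa2 chr5:125108275-125108574, minus strand: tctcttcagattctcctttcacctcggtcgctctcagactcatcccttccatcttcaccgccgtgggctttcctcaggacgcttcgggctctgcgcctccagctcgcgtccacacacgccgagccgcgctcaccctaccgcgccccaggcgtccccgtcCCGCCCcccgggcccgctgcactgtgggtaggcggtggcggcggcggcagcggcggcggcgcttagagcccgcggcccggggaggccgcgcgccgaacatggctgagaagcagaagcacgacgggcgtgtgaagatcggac
Adipor2 chr4:154211930-154212229, minus strand: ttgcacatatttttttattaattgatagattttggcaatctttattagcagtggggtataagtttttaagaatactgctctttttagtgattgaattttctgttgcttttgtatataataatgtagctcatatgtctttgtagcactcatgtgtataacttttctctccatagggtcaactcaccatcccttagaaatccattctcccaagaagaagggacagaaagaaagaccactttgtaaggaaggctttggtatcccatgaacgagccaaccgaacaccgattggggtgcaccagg

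Windows were found for 8 of the 10 genes, 9 windows in all, since Prkag2 has 2, and Appl1 and Cdh13 had none. A GC box was present in 7 of the 9, in either orientation, beside 33.1% of the 33469 windows of RefSeq. Prkaa1 held 6 matches, of which a pair overlaps, Prkag1 3 and Prkaa2 1. Adipor2 and Prkab1 held none. The letters CCAAT or their complement were found only in the window of Adipor2 among the 9, beside 37.5% of all windows, TATAAA in none beside 14.2%, and TGACGTCA in none beside 1.83%. The GC content was 81.3% for Prkaa1, 70.7% for Prkaa2, 61.3% for Prkag1 and 72.7% for Adipor1, and 37.3% for Adipor2, whose window holds 3 CpG pairs where that of Prkaa2 holds 39. The median of all windows was 51.7%. RefSeq gives several transcripts for these genes, and which start is used in the retina was not tested. The window of Adipor2 in particular may stand at a minor start, and its values describe that window only. A match is a string of letters and not a binding site, and nothing follows from it for the levels.

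The wider pathway was described by lists of genes around the 10. Of 97 listed genes that averaged 10 counts or more, 4 passed the fold threshold in STZ against buffer, all above 1.54, which is 4.12% of them, beside 3.73% of all genes. Relative to saline 3 were above and 1 below, again 4.12%, beside 4.33%, and between the controls 0 were called, beside 1.46%. At such shares, a short list with no gene past a threshold is not a result about that list. The median log2 fold of the 97 was 0.03 in STZ against buffer and -0.02 against saline.

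Among the relatives of adiponectin, secreted C1q/TNF proteins, 6 of the 10 listed genes were counted, and adiponectin itself, Adipoq, was not analysed here. C1qtnf6 was at 25 reads in buffer, 57 in the saline library and 50 after STZ. Its STZ fold was 1.74 relative to buffer but 1.29 relative to saline, and its count ratio between the controls was 2.28 (1.4 to 3.81). By reads STZ was not above saline, with a count ratio of 0.875 (0.586 to 1.3), and the implied length in STZ differed from saline by -40.9% and from buffer by -22.1%. For C1qtnf5 the reads were 25, 37 and 16, and the ratio of STZ to buffer was 0.639 (0.319 to 1.24). The other members of the PAQR family, to which the receptors belong, were mostly higher in STZ than in buffer. The median log2 fold of the 8 counted genes was 0.21, beside 0.03 over all genes. Paqr5, with 6 reads in buffer, 3 in saline and 1 in STZ, was too low to be counted. The interval lay above 1 for 6 of the 8, beside 26.2% of all genes, a share that grows with the number of reads. Against saline it lay above 1 for 5, beside 26.9%, and the folds of Paqr6 (0.945) and Paqr8 (0.956) were below 1. The fold passed 1.54 for Paqr7, a membrane progestin receptor, with 52, 49 and 107 reads. Its folds were 1.59 relative to buffer and 1.68 relative to saline, beside 3.73% and 4.33% of all genes past a threshold. Paqr6 had the smallest ratio, 1.08 (0.597 to 1.97). AdipoR proteins are held to carry ceramidase activity. Of the 6 ceramidase and sphingosine kinase genes counted, none passed a fold threshold on FPKM. The shares of all genes were 3.73% against buffer and 4.33% against saline. For Asah1, the lysosomal acid ceramidase, the reads were 819, 851 and 1106 and the ratio was 1.35 against buffer (1.23 to 1.48), and Asah2, the neutral ceramidase, had 109, 137 and 63 reads and a ratio of 0.577 (0.416 to 0.794). With CPM in place of FPKM, the fold of Asah2 was 0.648 against buffer and passed.

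Of the 8 counted partners of APPL1 and of Akt signalling, none passed a fold threshold and the interval lay below 1 for 5, beside 18.8% of all genes and 49.1% called either way among genes of the read depth of the 10. Pik3ca, a catalytic subunit of PI3-kinase, had the smallest ratio, with 5112, 5191 and 4313 reads and 0.842 (0.809 to 0.877). Rab5c, a GTPase of early endosomes, had the largest with 1.08 (1.03 to 1.14). The kinases upstream of AMPK were 9, and again none passed, beside 3.73% of all genes. Stk11, which encodes LKB1, had 3050, 3151 and 2740 reads and a ratio of 0.897 (0.851 to 0.945), and Camkk1, a calmodulin-dependent kinase kinase, had 2449, 2588 and 2990 reads and 1.22 (1.15 to 1.29). The counts of Pik3ca and Stk11 are estimates with a fraction, which their intervals do not include.

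Among 11 regulators of AMPK, 1 passed a fold threshold against buffer, beside 3.73% of all genes, and none against saline, beside 4.33%. That gene was Sesn2, with a fold above 1.54 in STZ against buffer. It encodes sestrin 2, a stress-induced protein that promotes AMPK activity. It had 451 reads in buffer, 512 in saline and 785 in STZ, with STZ folds of 1.66 relative to buffer and 1.48 relative to saline, the latter short of the threshold. The other sestrins were lower in STZ, with Sesn1 at 1534, 1623 and 1254 reads and Sesn3 at 18139, 18871 and 14820, and count ratios of 0.816 for both in STZ against buffer. The sestrin genes thus differed in direction.

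**Figure D5:**
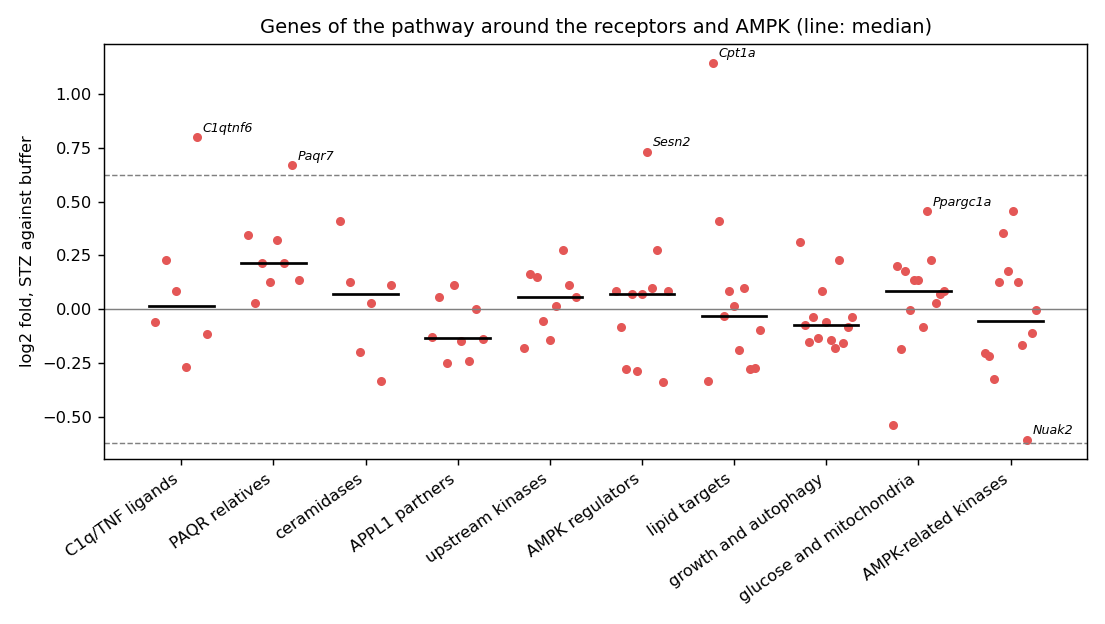
Log2 fold in STZ against buffer for each gene of the lists around the receptors and AMPK, 1 point per gene, with the median of each list as a line and the fold thresholds dashed; names are given to genes past a threshold against either control. Cpt1a is the highest point, with a fold of 2.21, and most genes lie between the thresholds.

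Downstream of AMPK, Cpt1a was the gene that differed most. It encodes the carnitine palmitoyltransferase that lets fatty acids into mitochondria, the step that AMPK favours by restraining acetyl-CoA carboxylase. It had 1064 reads in buffer, 1010 in saline and 2472 after STZ. The controls gave a count ratio of 0.95 (0.871 to 1.04), and STZ was far above both, at folds of 2.21 over buffer and 2.32 over saline. Its count ratio over buffer was 2.32 (2.16 to 2.49). No other of the 11 lipid genes passed, beside 3.73% of all genes against buffer and 4.33% against saline. Acacb, a carboxylase that forms malonyl-CoA at mitochondria, had 161, 164 and 121 reads and a ratio of 0.75 (0.588 to 0.956).

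In the list of glucose and mitochondrial targets, with 13 genes counted, none passed against buffer, beside 3.73% of all genes. Ppargc1a, the coactivator of mitochondrial biogenesis, had 301 reads in buffer, 176 in saline and 461 in STZ, with STZ folds of 1.37 over buffer and 1.86 over saline. The controls differed, with a count ratio of 0.585 in saline against buffer (0.483 to 0.707). Slc2a1, the glucose transporter GLUT1, had 10438, 9378 and 7196 reads, a fold of 0.69 against buffer, above the threshold of 0.65, and a count ratio of 0.688 (0.668 to 0.709). Of the 13 genes of growth control and autophagy, none passed in any comparison, beside 3.73%, 4.33% and 1.46% of all genes. Their count ratios in STZ against buffer ran from 0.88 for Foxo3 to 1.26 for Eef2k. The interval lay above 1 for 3 of them, beside 26.2% of all genes, and below 1 for 5, beside 18.8%. Their median log2 fold was -0.07, beside 0.03 over all genes.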

How the data were processed

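Retinal RNA from 3 conditions, 1 library each, was prepared with an Illumina TruSeq kit. The authors checked the reads with FastQC, trimmed them, mapped them with TopHat2 with up to 2 mismatches to rn6 (per the labels), discarded reads with several locations, and computed values with a custom script. The authors deposited an FPKM, a TPM (summing to 1000000 in buffer) and an estimated count for each gene. Of the 18425 genes, 2858 have a fractional estimated count, but none of the 10 members. Counts were rounded, and the library totals lay between 21977846 and 22031241. Tables per library equal the joint table, with a largest difference of 0.

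Folds used a pseudocount of 1 on FPKM. Count ratios have exact conditional (Clopper-Pearson) 95% intervals, and ratios of 2 genes have exact conditional intervals of the 2 x 2 table. Since no molecular identifiers were used, reads are not separate molecules, and intervals and the floor of 3 counts cover counting error only. Shares of all genes are over genes averaging 10 counts or more. No model was fitted, since there are no replicates. The calculations were tested on simulated data.

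The members and lists were chosen with earlier results of these data known. All 10 members were named, with, from each pathway list, genes past a fold threshold in STZ, the largest and smallest count ratio, and Prkag3, Adipoq and Appl2. Sesn1, Paqr8, the markers and the genes given as examples from marker lists were named after their values were seen. No gene was ranked for likeness of pattern, since 3 libraries give 3 points. Alternatives were a pseudocount of 0.1, TPM or CPM in place of FPKM, TMM (edgeR 4.0.16) or median-of-ratios (DESeq2 1.42.0) factors in R 4.3.3, thresholds of 2 and 0.5, a minimum of 50 counts, a 99% interval, and the mean of both controls. Python 3.11.15, numpy 2.4.6, pandas 2.3.3, scipy 1.17.1 and matplotlib 3.10.9 were used. Promoter windows are from RefSeq, build GRCr8, and primer sequences from the supplement of the paper. Values of some single genes are not reported here.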

Additional observations from a re-analysis of the deposited data

How the results depend on the processing

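None of the 10 genes passed the fold thresholds under any alternative, pseudocount, unit, scaling factor or thresholds of 2 and 0.5, in any of the 3 comparisons. The median log2 fold of the 10 genes moved by less than the median counting error of the genes in all 15 alternatives. Of 160 folds of single genes under an alternative, 157 moved by less than the counting error. The other 3 were those computed from CPM, 0.86 for Prkaa2 and 0.869 for Adipor2 in STZ against buffer and 0.854 for Adipor2 in STZ against saline. CPM makes no use of a length. With 99% intervals, 1 gene was higher in STZ than in saline, Prkag1 without Prkaa1, and 0 were lower in saline than in buffer, since Prkag1 was no longer called. The factors were 0.985, 1 and 1.01 by TMM for buffer, saline and STZ, and altered none of these counts. In the pathway lists, 59 of 66 counts of genes past the thresholds were within 1.5 times of those given. With a minimum of 50 counts C1qtnf6 was left out. With CPM, C1qtnf6 passed between the controls (1.68) and not in STZ against buffer (1.53), C1qtnf5 passed in STZ against saline (0.643), Asah2 passed against buffer (0.648) and saline (0.534), and Ppargc1a passed between the controls (0.613). With 1 library per condition no replicate could be left out. No paired analysis was possible because each condition has 1 library. Cdh13, with 225 to 286 reads, is the gene for which depth limits most.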

Other observations

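The kinases related to AMPK, most of which LKB1 also activates, were 12 in number with counts. None passed a fold threshold in STZ against buffer, beside 3.73% of all genes, and 1 passed against saline, beside 4.33%. That was Nuak2, a kinase of the actomyosin and Hippo pathways, with 1671 reads in buffer, 1888 in saline and 1082 in STZ, a fold of 0.657 against buffer, just above the threshold of 0.65, and 0.582 against saline. Its count ratio against buffer was 0.646 (95% counting interval 0.598 to 0.698). Nuak1 was lower in STZ too, with 1592, 1739 and 1261 reads and a ratio of 0.791 (0.734 to 0.852). Sik1, a salt-inducible kinase, had 129, 181 and 196 reads, with 1.52 against buffer (1.21 to 1.91) but 1.08 against saline, and Mark1, a microtubule affinity-regulating kinase, had 1024, 1007 and 1335 reads and 1.3 (1.2 to 1.41). The interval lay above 1 for 5 of the 12, beside 26.2% of all genes, and below 1 for 6, beside 18.8%, shares that grow with the number of reads. Nuak1 and Mark1 were named after their values were seen.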
